A study of Homo sapiens with 6 samples.

Results

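The genes of major histocompatibility complex (MHC) class I antigen presentation were examined in HEK293T cells that received 4 pooled siRNAs directed at LOC550643, or a non-silencing siRNA. The set held 9 genes, chosen by symbol from the 26391 rows of the deposited gene table: HLA-B, HLA-C, HLA-E, B2M, TAP1, TAP2, TAPBP, PSMB8 and PSMB9. HEK293T is a cell line of human embryonic kidney origin that expresses the large T antigen of SV40. LOC550643 encodes a small polypeptide that binds EDC4, a scaffold protein of mRNA decapping, and the study asked whether silencing it shifts mRNA levels. Transfection was done at 50% confluency in both groups, RNA was collected 48 hours afterwards, and 3 samples were sequenced per group. Each group rests on a single reagent, so the silencing cannot be told apart from any other effect of the pool or of the non-silencing siRNA.

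MHC class I molecules carry peptides from inside the cell to its surface, where T cells read them. Proteins are cut by the proteasome, in part by its interferon-inducible immunoproteasome form, and the TAP transporter moves the peptides into the endoplasmic reticulum (ER). There tapasin and ER chaperones help to load them onto a heavy chain paired with beta-2-microglobulin. Many genes of the pathway are induced by interferon-gamma, and most of the members lie in the MHC region of chromosome 6.

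The libraries held 35249993, 30739321 and 8604236 read pairs in LOC550643 siRNA replicates 1 to 3, against 32309964, 33421161 and 36082404 in non-silencing replicates 1 to 3. The siRNA target, listed as LINC01420, stood at 5.85, 5.96 and 5.42 CPM (reads of the gene scaled to a common library total) after LOC550643 siRNA and at 56.2, 50.7 and 51.8 CPM with the non-silencing siRNA. A list of 10 markers of HEK293 cells summed to 1308 to 1453 CPM after LOC550643 siRNA and to 1205 to 1324 CPM with the non-silencing siRNA. Most of each sum was VIM, which averaged 870 CPM after LOC550643 siRNA and 812 CPM with the non-silencing siRNA. The lowest marker, EPCAM, averaged 1.67 and 1.43 CPM in the same groups, so the sums mostly follow VIM. A list of 10 leukocyte markers summed to 8.58 to 9.02 CPM after LOC550643 siRNA and to 9.58 to 11.3 CPM with the non-silencing siRNA; MS4A1 was at 0 in every library, and PTPRC averaged 0 and 0.0094 CPM. No label says that the samples of a group came from separate cultures, so the spread behind each p-value may be technical. In bulk RNA, fewer cells expressing a gene and less RNA per cell cannot be told apart.

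The class I genes did not move as a block. TAP1, TAPBP and PSMB9 fell, HLA-B and HLA-C rose by small amounts, and HLA-E, B2M and TAP2 did not pass the test. PSMB8 had too few reads to be tested, which left 8 of the 9 members past the filter on low counts. Of the 16245 genes tested, 18.1% were called lower and 17.5% higher (limma adjusted p under 0.05), against 3 and 2 of the 8 tested members. At 5 of the 8 the groups did not overlap, which was so for 48.6% of all genes tested. The median log2 fold change (LOC550643 siRNA over non-silencing siRNA) was -0.07 over the tested members and -0.02 over all genes tested. With library totals in place of TMM scaling, 34.4% of all called genes were higher in place of 49.2%, and HLA-B no longer passed. The count of 2 higher members became 0 without LOC550643 siRNA replicate 2, and 1 without non-silencing replicate 2 or 3. Without LOC550643 siRNA replicate 1 it stayed at 2, but HLA-B was lost (limma adjusted p = 0.0673) and HLA-E passed (0.0436). The count of 3 lower members was the same whichever library was left out.

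**Figure D1:**
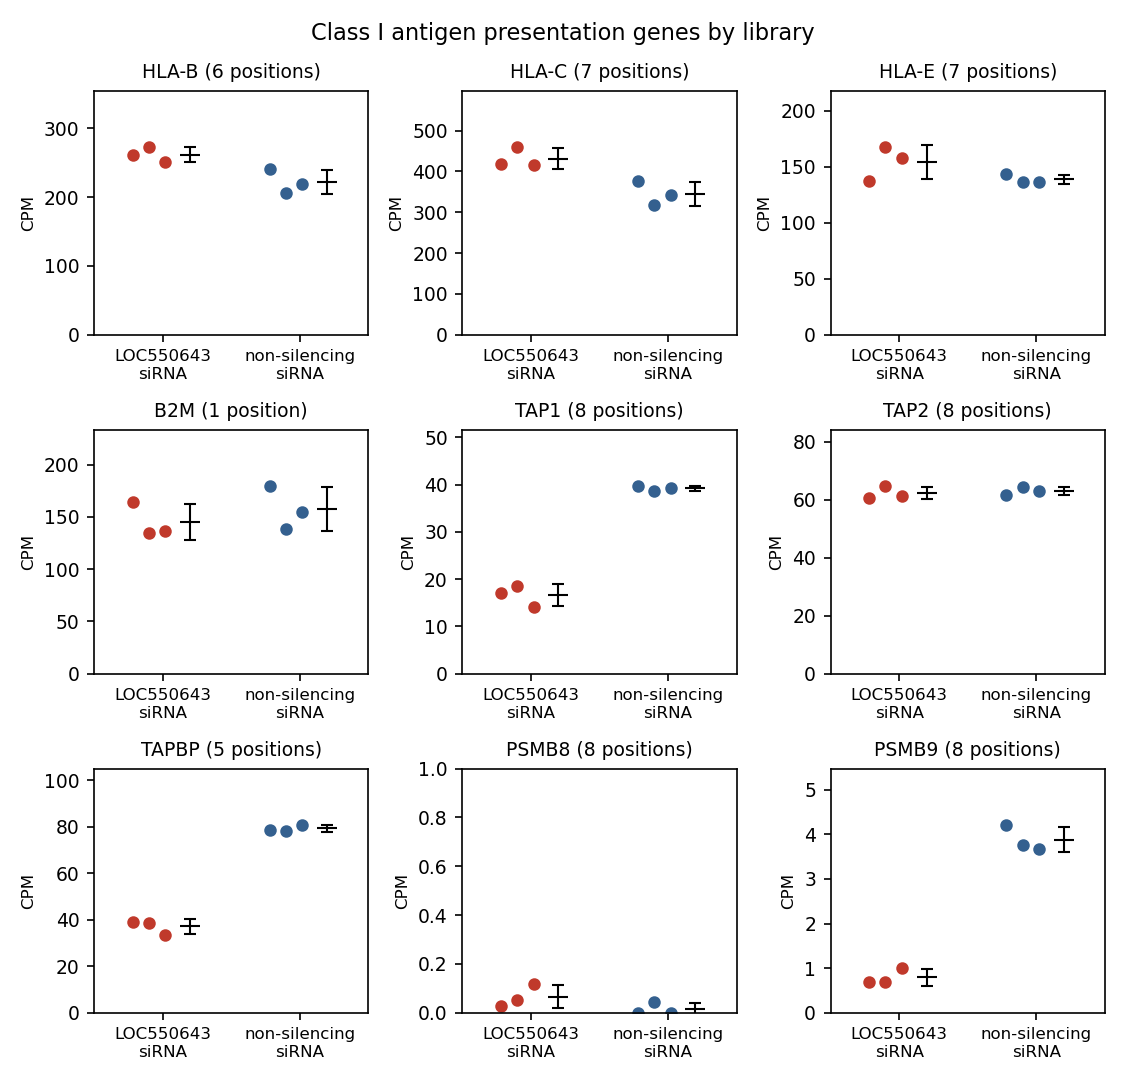
CPM (y axis, from 0, scaled per gene) of the 9 genes in each library (points), with the mean and SD of each group (black, n = 3); titles give the number of genome positions of the row. TAP1, TAPBP and PSMB9 were lower in all 3 LOC550643 siRNA libraries than in any non-silencing library, HLA-B and HLA-C were higher, and PSMB8 was near 0 in both groups.

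Several rows stand for more than 1 place in the genome. The rows of TAP1, TAP2, PSMB8 and PSMB9 were each listed at 8 positions, those of HLA-C and HLA-E at 7, HLA-B at 6 and TAPBP at 5, and that of B2M at 1. How reads that match several positions were counted is not given in the sources used here. The classical heavy chain genes are also near relatives in sequence and differ between people, so reads may be shared among them and their single values are uncertain. Of the 246 tested rows at several positions, 27.6% were called in either direction, against 35.6% of all genes tested.

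Promoter sequences are shown for the 3 genes that fell, TAP1, PSMB9 and TAPBP, beside TAP2 and HLA-C, which did not fall. They are RefSeq windows (GRCh38.p14) of 250 bases before to 50 bases after an annotated start, written 5′ to 3′ on the gene's strand, on another build than the hg19 table. Capitals mark the core of the interferon-stimulated response element (ISRE; GAAA, any 2 bases, GAAA), the kappaB site bound by NF-kappaB, and the CCAAT box bound by NF-Y, each searched on both strands; adjacent ISRE matches overlap each other. Of 35116 such windows over all genes, 3.57% hold the ISRE core, 5.91% a kappaB site and 34.6% a CCAAT box.
TAP1, chr6:32853655-32853954, minus strand: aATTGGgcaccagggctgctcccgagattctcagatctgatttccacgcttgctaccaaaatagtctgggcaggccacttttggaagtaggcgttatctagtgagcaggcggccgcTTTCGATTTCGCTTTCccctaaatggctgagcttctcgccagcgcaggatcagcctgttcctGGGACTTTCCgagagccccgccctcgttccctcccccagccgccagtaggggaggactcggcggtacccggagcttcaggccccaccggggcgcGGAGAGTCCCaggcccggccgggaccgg
PSMB9, chr6:32853942-32854241, plus strand: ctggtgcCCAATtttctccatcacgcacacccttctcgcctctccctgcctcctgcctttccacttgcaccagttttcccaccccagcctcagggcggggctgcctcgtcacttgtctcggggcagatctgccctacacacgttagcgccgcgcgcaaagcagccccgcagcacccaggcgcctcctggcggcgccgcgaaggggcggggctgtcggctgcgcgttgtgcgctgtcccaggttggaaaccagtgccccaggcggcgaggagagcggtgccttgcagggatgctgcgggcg
TAPBP, chr6:33314029-33314328, minus strand: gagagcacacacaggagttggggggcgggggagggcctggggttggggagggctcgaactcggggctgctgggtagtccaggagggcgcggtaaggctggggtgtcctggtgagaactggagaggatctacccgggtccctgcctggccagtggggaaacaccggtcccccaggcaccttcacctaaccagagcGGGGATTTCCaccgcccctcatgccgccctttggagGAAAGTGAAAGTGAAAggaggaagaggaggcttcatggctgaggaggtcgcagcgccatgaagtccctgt
TAP2, chr6:32838690-32838989, minus strand: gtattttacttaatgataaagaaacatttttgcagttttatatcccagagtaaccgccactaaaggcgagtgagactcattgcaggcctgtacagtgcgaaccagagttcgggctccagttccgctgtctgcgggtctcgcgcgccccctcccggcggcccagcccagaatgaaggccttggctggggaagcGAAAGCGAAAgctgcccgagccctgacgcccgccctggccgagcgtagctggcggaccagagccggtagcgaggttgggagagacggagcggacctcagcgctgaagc
HLA-C, chr6:31272043-31272342, minus strand: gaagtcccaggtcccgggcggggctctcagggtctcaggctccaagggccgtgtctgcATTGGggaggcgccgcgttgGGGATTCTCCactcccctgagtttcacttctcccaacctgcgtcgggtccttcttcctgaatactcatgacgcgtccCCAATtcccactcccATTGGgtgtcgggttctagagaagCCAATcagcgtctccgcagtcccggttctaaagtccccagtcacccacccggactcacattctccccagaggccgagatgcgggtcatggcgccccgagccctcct

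TAP1 and PSMB9 are transcribed away from each other, and these windows share 13 bases. In the hg19 table their starts lie 190 bases apart. Windows with 250 bases before each start would share more than 13 bases at that distance. The windows thus appear to rest on other annotated starts than the table rows, and may not be the promoters of the measured gene models. Positions are counted from 1 at the 5′ end of each window. The TAP1 window held ISRE matches at 117 to 126 and 123 to 132 and kappaB matches at 179 to 188 and 273 to 282. The TAPBP window held ISRE matches at 231 to 240 and 237 to 246 and a kappaB match at 195 to 204. PSMB9 held neither in its own window, and its CCAAT box at 8 to 12 is the one at 2 to 6 of the TAP1 window, read on the other strand. Among the genes that did not fall, TAP2 held an ISRE match at 193 to 202, and HLA-C held a kappaB match at 79 to 88 and 4 CCAAT boxes. B2M, whose window is not printed, did not pass the test either. It held ISRE matches at 107 to 116 and 113 to 122 and a kappaB match at 126 to 135, as in the TAP1 and TAPBP windows. These motifs thus do not separate the genes that fell from the others. Over the 8 members with a window, 5 had an ISRE match, 5 a kappaB match and 5 a CCAAT box; HLA-E had no entry. TAP1 and PSMB8 have 2 windows each, and the TAP1 window shown is the one that meets that of PSMB9. The other TAP1 window held no match to any of these motifs. A match describes letters and does not show binding.

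The heavy chains, which hold the peptide, were abundant. HLA-C (chromosome 6 at 31236526 to 31239913, hg19, minus strand), a classical heavy chain that is also read by receptors of natural killer cells, stood at 418, 460.1 and 417 CPM after LOC550643 siRNA and at 376, 317 and 342 CPM with the non-silencing siRNA. All 3 LOC550643 siRNA libraries were above all 3 non-silencing ones. HLA-C rose by 0.32 on the log2 scale (SE 0.082, limma adjusted p = 0.0102), a call lost without LOC550643 siRNA replicate 2 (limma adjusted p = 0.0544).

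HLA-B (31321649 to 31324989, minus strand), a classical heavy chain that presents peptides to cytotoxic T cells, stood at 261, 273 and 251 CPM after LOC550643 siRNA and at 241, 206 and 219 CPM with the non-silencing siRNA. The groups did not overlap but came close to each other. HLA-B rose by 0.24 (SE 0.076, limma adjusted p = 0.0297). The call was lost when LOC550643 siRNA replicate 1 (limma adjusted p = 0.0673) or 2 (0.112) was left out, as it was for non-silencing replicate 2 (0.0744) or 3 (0.0776). MIR6891 lies within HLA-B on the same strand, and reads of that stretch cannot be told apart.

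HLA-E (30457183 to 30461982, plus strand), a heavy chain that shows leader peptides of other class I molecules to natural killer cells, stood at 137, 168 and 157 CPM after LOC550643 siRNA and at 143, 137 and 136 CPM with the non-silencing siRNA. The groups overlapped, since LOC550643 siRNA replicate 1 lay within the non-silencing range. The log2 fold change was 0.15 (95% interval -0.03 to 0.32, limma adjusted p = 0.176); without that replicate it was 0.23 and passed (limma adjusted p = 0.0436). Of 6 other heavy chain genes and pseudogenes of the region, 5 were tested and 0 were called in either direction. The share called over all genes tested was 35.6%. The median log2 fold change of these 5 was 0.14. HLA-L, a pseudogene, stood at -0.27 (limma adjusted p = 0.0661) and passed with upper-quartile scaling (0.0416) and with library totals (0.025).

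B2M, the light chain that class I heavy chains pair with, lies outside the MHC region, on chromosome 15 at 45003685 to 45010357 (plus strand). It stood at 165, 134 and 137 CPM after LOC550643 siRNA and at 179.7, 139 and 154 CPM with the non-silencing siRNA. The groups overlapped, and the log2 fold change was -0.12 with a 95% interval of -0.35 to 0.11 (limma adjusted p = 0.414). Per kilobase of gene model, HLA-B, HLA-C and HLA-E together were at 2.89, 3.88 and 3.49 times the level of B2M after LOC550643 siRNA and at 2.45, 2.73 and 2.61 times with the non-silencing siRNA. This ratio was higher in all 3 LOC550643 siRNA libraries, by 0.39 on the log2 scale. Its exact permutation p was 0.1 (two-sided, n = 3 per group), the smallest that this design can give, and the ratios of TAP1 to TAP2 and of PSMB9 to PSMB6 had the same exact p.

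The transporter subunits differed from each other. TAP1 (chromosome 6 at 32812986 to 32821748, minus strand), a subunit of the ATP-driven peptide pump, stood at 17.0, 18.6 and 14.2 CPM after LOC550643 siRNA and at 39.7, 38.6 and 39.2 CPM with the non-silencing siRNA. The groups lay far apart. TAP1 fell to 0.424 of the non-silencing level (log2 -1.25, SE 0.101, limma adjusted p = 1.02e-05). TAP2 (32793187 to 32806600, minus strand), the subunit that TAP1 pairs with, stood at 60.7, 64.7 and 61.3 CPM after LOC550643 siRNA and at 61.4, 64.4 and 63.0 CPM with the non-silencing siRNA. The groups covered nearly the same range, with a log2 fold change of -0.02 and a 95% interval of -0.16 to 0.13 (limma adjusted p = 0.873); without LOC550643 siRNA replicate 1 the value was 0.0024.

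Per kilobase, TAP1 was at 0.539, 0.553 and 0.444 times the level of TAP2 after LOC550643 siRNA and at 1.24, 1.15 and 1.20 times with the non-silencing siRNA, a log2 difference of -1.23. By this measure TAP1 was below TAP2 in every LOC550643 siRNA library and above it in every non-silencing library. That order rests on the gene model lengths, 2939 bases for TAP1 and 5651.2 for TAP2. In CPM, without division by length, TAP2 was above TAP1 in every library of both groups. Which subunit mRNA was the more abundant is thus not settled. TAP1 overlaps PSMB8-AS1, a noncoding gene on the opposite strand, and the file header shows no strand option. PSMB8-AS1, looked up because of that overlap, averaged 3.30 ± 0.335 CPM after LOC550643 siRNA and 7.60 ± 0.712 CPM with the non-silencing siRNA (SD, n = 3 each), and it also fell (log2 -1.20, limma adjusted p = 7.73e-05). Reads of the shared stretch cannot be told apart.

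TAPBP encodes tapasin, which bridges class I molecules and the transporter. Its row (chromosome 6 at 33267472 to 33282164, minus strand) stood at 39.1, 38.7 and 33.5 CPM after LOC550643 siRNA and at 78.6, 78.3 and 80.8 CPM with the non-silencing siRNA. All LOC550643 siRNA libraries were far below all non-silencing ones. TAPBP fell to 0.468 of the non-silencing level (log2 -1.10, SE 0.078, limma adjusted p = 4.68e-06).

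The immunoproteasome subunits were the least abundant members. PSMB9 (chromosome 6 at 32821938 to 32827628, plus strand), which replaces the standard subunit PSMB6, stood at 0.681, 0.690 and 1.01 CPM after LOC550643 siRNA and at 4.21, 3.76 and 3.68 CPM with the non-silencing siRNA. These values rest on 23.5, 20.5 and 8.5 read pairs after LOC550643 siRNA and on 139.5, 129.5 and 136 with the non-silencing siRNA, counted as read ends over 2. The widest exact Poisson 95% interval after LOC550643 siRNA, that of replicate 3, ran from 0.411 to 1.88 CPM, and the lowest bound among the non-silencing libraries was 3.09 CPM; both cover counting error only. The groups thus lay further apart than counting error. PSMB9 fell to 0.205 of the non-silencing level (log2 -2.26, SE 0.202, limma adjusted p = 1.85e-05).

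PSMB8 (32808494 to 32812712, minus strand), the immunoproteasome counterpart of PSMB5, had 1, 1.5 and 1 read pairs after LOC550643 siRNA and 0, 1.5 and 0 with the non-silencing siRNA. All of these lie under the limit of 3 read pairs, which is 0.357 CPM in the shallowest library and 0.0812 CPM in the deepest, so no fold change is given and a difference was not detectable at this depth.

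The standard subunits that these forms replace were far more abundant. PSMB5 stood at 93.0, 98.8 and 97.7 CPM after LOC550643 siRNA and at 139.8, 119 and 130.2 CPM with the non-silencing siRNA, and it fell by 0.43 on the log2 scale (limma adjusted p = 0.00123). PSMB6 stood at 75.9, 78.5 and 72.6 CPM after LOC550643 siRNA and at 93.3, 79.5 and 89.3 CPM with the non-silencing siRNA. Its groups came close, and its log2 fold change of -0.20 did not pass (limma adjusted p = 0.0581), although it passed without non-silencing replicate 2 (0.00926), with upper-quartile scaling (0.0406) and with library totals (0.0131). PSMB7, the remaining standard catalytic subunit, fell by 0.24 (limma adjusted p = 0.0198), a call lost without LOC550643 siRNA replicate 2 or 3 (0.0733 and 0.0563) and without non-silencing replicate 1 or 3 (0.0863 and 0.0748).

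Per kilobase, PSMB9 was at 0.00745, 0.00731 and 0.0116 times the level of PSMB6 after LOC550643 siRNA and at 0.0375, 0.0393 and 0.0342 times with the non-silencing siRNA, a log2 difference of -2.11. PSMB10, the immunoproteasome counterpart of PSMB7, was looked up after values had been seen. It averaged 12.5 ± 0.662 CPM after LOC550643 siRNA and 10.3 ± 1.20 CPM with the non-silencing siRNA (SD, n = 3 each), a log2 fold change of 0.28 that did not pass (limma adjusted p = 0.0652) but passed without non-silencing replicate 1 (0.0375). Of the 8 tested genes of immunoproteasome partners and standard catalytic subunits, 0 were higher, 2 were lower (PSMB5 and PSMB7) and 6 did not pass. The interferon-inducible proteasome activator genes PSME1 and PSME2 were among those that did not pass. The shares over all genes tested were 17.5% higher and 18.1% lower.

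**Figure D2:**
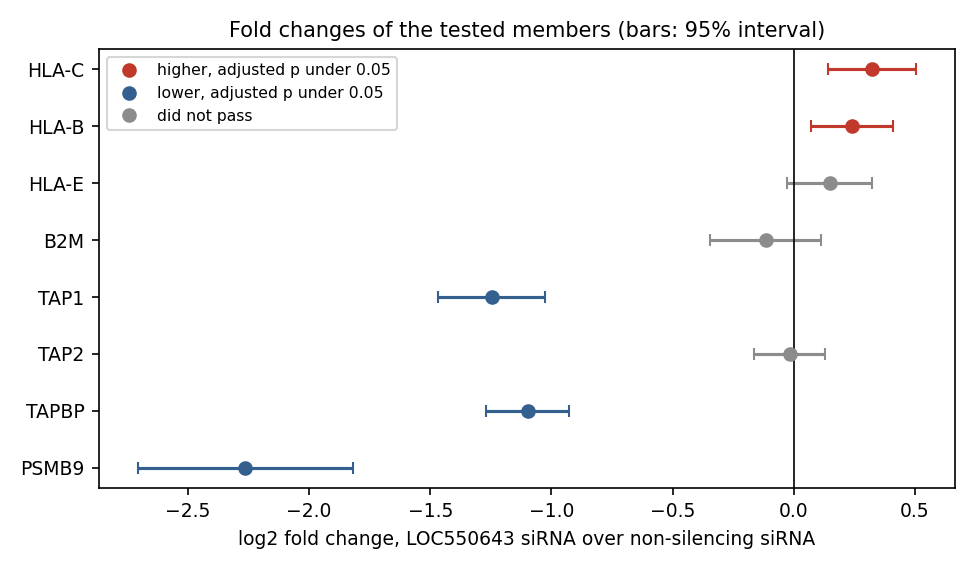
Log2 fold change (x axis, LOC550643 siRNA over non-silencing siRNA) of the 8 tested members, with the 95% interval of the limma fit (n = 3 per group) and the call by colour. TAP1, TAPBP and PSMB9 lie between -2.26 and -1.10, while the other 5 lie between -0.12 and 0.32.

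The authors' deposited table lists log2 fold changes that are positive where LOC550643 siRNA was higher. For the members that fell here, the authors' deposited table gives -1.21 for TAP1 (adjusted p = 1.09e-23), -1.08 for TAPBP (1.24e-25) and -2.37 for PSMB9 (2.69e-23). For the heavy chains, the authors' deposited table gives 0.32 for HLA-C (adjusted p = 0.00718), 0.23 for HLA-B (0.0590) and 0.15 for HLA-E (0.366). HLA-B is thus under an adjusted p of 0.05 in the limma fit and above it in the authors' deposited table. PSMB8 is given there at 1.35 (adjusted p = 0.544 in the authors' deposited table), from the few read pairs listed above.

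Ordered by mean level per kilobase after LOC550643 siRNA, the members stood at 275 CPM for HLA-C, 168 for HLA-B, 148 for B2M, 58.1 for HLA-E, 11.0 for TAP2, 9.88 for TAPBP, 5.65 for TAP1, 0.764 for PSMB9 and 0.042 for PSMB8. With the non-silencing siRNA they stood at 220.1 CPM per kilobase for HLA-C, 161 for B2M, 142 for HLA-B, 52.3 for HLA-E, 21.1 for TAPBP, 13.3 for TAP1, 11.1 for TAP2, 3.74 for PSMB9 and 0.0092 for PSMB8. Compared within each library, HLA-B was above B2M in LOC550643 siRNA replicates 2 and 3 and just below it in replicate 1, and it was below B2M in all 3 non-silencing libraries. The ranges of both genes over the libraries overlapped in both groups. Per kilobase, TAP2 was above TAPBP and TAP1 in every LOC550643 siRNA library and below both in every non-silencing library. By mean level per kilobase with the non-silencing siRNA, HLA-C was above 98.7% of all genes tested, TAP1 above 60.6% and PSMB9 above 31.0%.

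Several ER chaperones that serve peptide loading moved the other way from TAPBP. Of 8 tested genes of ER chaperones and translocation, 4 rose, 1 fell and 3 did not pass. The shares over all genes tested were 17.5% higher and 18.1% lower. The list median was 0.22 on the log2 scale, and the list was not tested as a set. CALR, the calreticulin that holds class I molecules in the loading complex, stood at 841, 1042 and 955 CPM after LOC550643 siRNA and at 523, 505 and 478 CPM with the non-silencing siRNA. Every LOC550643 siRNA library was above every non-silencing library, and CALR rose by 0.91 on the log2 scale (limma adjusted p = 3.63e-05). HSPA5, the general ER chaperone BiP, averaged 1029 ± 91.1 CPM after LOC550643 siRNA and 721 ± 22.3 CPM with the non-silencing siRNA (SD, n = 3 each; log2 0.51, limma adjusted p = 0.000955). PDIA3, the disulfide isomerase bound to tapasin, and CANX, the chaperone calnexin, were looked up after values had been seen; they rose by 0.39 (limma adjusted p = 0.00265) and 0.36 (0.0105), and the call of CANX was lost without LOC550643 siRNA replicate 2 (0.0524). TAPBPL, a relative of tapasin that edits peptides, was likewise looked up and averaged 0.674 ± 0.190 CPM after LOC550643 siRNA and 1.35 ± 0.401 CPM with the non-silencing siRNA (SD, n = 3 each). It fell (log2 -0.97, limma adjusted p = 0.0231), a call lost with DESeq2 (0.0774), when LOC550643 siRNA replicate 2 or 3 was left out (0.0537 and 0.0637) and without non-silencing replicate 1 or 2 (0.0576 and 0.0884).

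Peptidases that trim or destroy peptides set the supply for loading. Of 10 tested, 6 rose, 2 fell (ERAP2 and LNPEP, aminopeptidases that act in the ER and in endosomes) and 2 did not pass. Among all genes tested, 17.5% were higher and 18.1% lower. The list median was 0.26 on the log2 scale, and the list was not tested as a set. LAP3, a cytosolic leucine aminopeptidase, averaged 80.9 ± 4.30 CPM after LOC550643 siRNA and 51.9 ± 4.85 CPM with the non-silencing siRNA (SD, n = 3 each; log2 0.64, limma adjusted p = 0.000176). THOP1, which cuts peptides in the cytosol, averaged 142 ± 7.25 CPM and 107 ± 4.58 CPM in the same groups (log2 0.41, limma adjusted p = 0.00106).

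Among 20 transcription factors of class I genes, 18 were tested. Of these, 3 rose (USF2, RELB and RELA), 4 fell (NFYC, IRF8, REL and RFXAP) and 11 did not pass. These shares are near the 17.5% higher and 18.1% lower over all genes tested, so the counts are no result about the factors. The list median was -0.06 on the log2 scale. RELB, an NF-kappaB subunit, averaged 12.7 ± 0.742 CPM after LOC550643 siRNA and 8.85 ± 0.241 CPM with the non-silencing siRNA (SD, n = 3 each; log2 0.52, limma adjusted p = 0.00176). USF2, which binds E-box sequences, averaged 132 ± 6.67 CPM and 92.4 ± 1.98 CPM in the same groups (log2 0.51, limma adjusted p = 0.000195). NLRC5, the class I transactivator, was looked up after values had been seen and averaged 5.70 ± 0.136 CPM after LOC550643 siRNA and 7.01 ± 0.874 CPM with the non-silencing siRNA (SD, n = 3 each). Its log2 fold change of -0.29 did not pass (limma adjusted p = 0.0888) but passed with library totals (0.038). IRF1, which binds ISRE sequences and was also looked up, was at -0.05 (limma adjusted p = 0.722), and at 0.029 without non-silencing replicate 1.

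Genes of interferon signalling were lower where they were called. Among all genes tested, 17.5% were higher and 18.1% lower. Of 13 tested interferon receptors and signal transducers, 0 rose, 8 fell and 5 did not pass. The list median was -0.31 on the log2 scale. JAK1, the kinase shared by the interferon receptors, averaged 102 ± 4.99 CPM after LOC550643 siRNA and 139 ± 7.25 CPM with the non-silencing siRNA (SD, n = 3 each; log2 -0.44, limma adjusted p = 0.000734). IFNAR1, a chain of the type I interferon receptor, averaged 80.6 ± 2.29 CPM and 101 ± 3.51 CPM in the same groups (log2 -0.33, limma adjusted p = 0.00265). Of 26 tested interferon-stimulated genes outside antigen presentation, 0 rose, 12 fell and 14 did not pass; the list median was -0.36. IFITM1, a membrane protein that restricts viral entry, averaged 25.8 ± 2.66 CPM after LOC550643 siRNA and 46.3 ± 3.36 CPM with the non-silencing siRNA (SD, n = 3 each; log2 -0.85, limma adjusted p = 6.93e-05). DTX3L, a ubiquitin ligase, averaged 21.2 ± 0.668 CPM and 35.3 ± 0.249 CPM in the same groups (log2 -0.74, limma adjusted p = 3.66e-05).

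**Figure D3:**
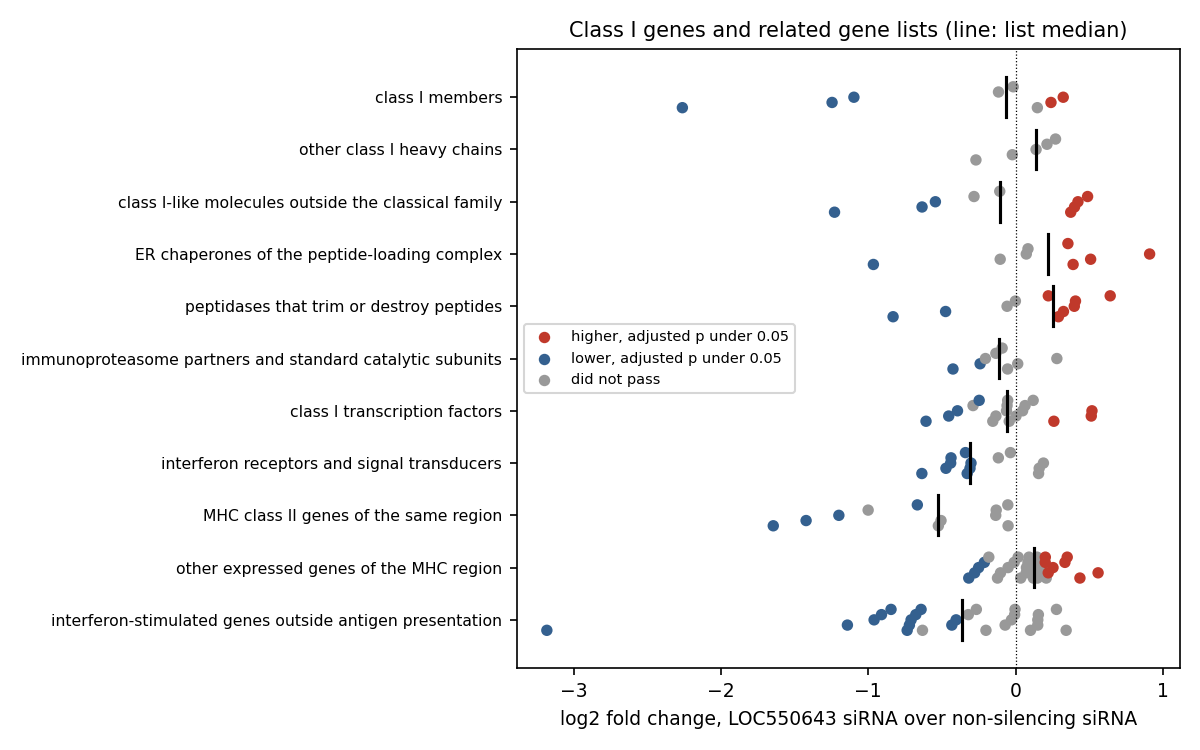
Log2 fold change (x axis, LOC550643 siRNA over non-silencing siRNA) of every tested gene (points) of the class I members and of 10 related lists, with each list's median (black line) and the call by colour. Interferon-stimulated genes, interferon signalling genes and class II genes hold lower and no higher calls, while ER chaperones and peptidases hold more higher than lower calls.

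The background over all genes tested was 17.5% higher and 18.1% lower. In a list of expressed MHC region genes outside classes I and II, calls came at shares not far from this background. Its counts are no result about the region. Of 32 other expressed genes of the region, all tested and 31 of them listed at several positions, 8 rose, 4 fell (KIFC1, TUBB, BAG6 and DAXX) and 20 did not pass; the list median was 0.12 on the log2 scale. GNL1, a GTPase gene near HLA-E, averaged 157 ± 3.46 CPM after LOC550643 siRNA and 106 ± 0.832 CPM with the non-silencing siRNA (SD, n = 3 each; log2 0.56, limma adjusted p = 7.10e-05). WDR46, a gene near TAPBP, averaged 70.7 ± 2.99 CPM and 52.2 ± 2.01 CPM in the same groups (log2 0.44, limma adjusted p = 0.000667). Of 11 tested MHC class II genes, 0 rose, 4 fell (HLA-DMB, HLA-DMA, HLA-DPA1 and HLA-DPB1) and 7 did not pass. The share that fell was above the 18.1% over all genes tested, and the list median was -0.52. The list is short and was not tested as a set.

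Around TAP1, genes that fell lay among genes that did not pass. A window of 200 kb on each side of its start, chosen after values had been seen, held 14 rows, of which 11 were tested; 6 were lower and 0 higher, where 18.1% of all genes tested were lower and 17.5% higher. The window is centred on a gene that fell, and the 6 include TAP1 itself and PSMB8-AS1, which shares reads with it, so the count is a description. The 6 were PSMB8-AS1, TAP1, PSMB9, LOC100294145, HLA-DMB and HLA-DMA. HLA-DMB, a chain of the chaperone that loads class II molecules, averaged 5.38 ± 0.236 CPM after LOC550643 siRNA and 12.4 ± 0.154 CPM with the non-silencing siRNA (SD, n = 3 each; log2 -1.20, limma adjusted p = 1.28e-05). HLA-DMA, its partner chain, averaged 1.25 ± 0.227 CPM and 4.00 ± 0.895 CPM in the same groups (log2 -1.65, limma adjusted p = 0.000191). LOC100294145, a noncoding gene between PSMB9 and HLA-DMB, fell by 0.41 (limma adjusted p = 0.00354). TAP2, HLA-DOB, HLA-DQB1, BRD2 and HLA-DOA did not pass.

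**Figure D4:**
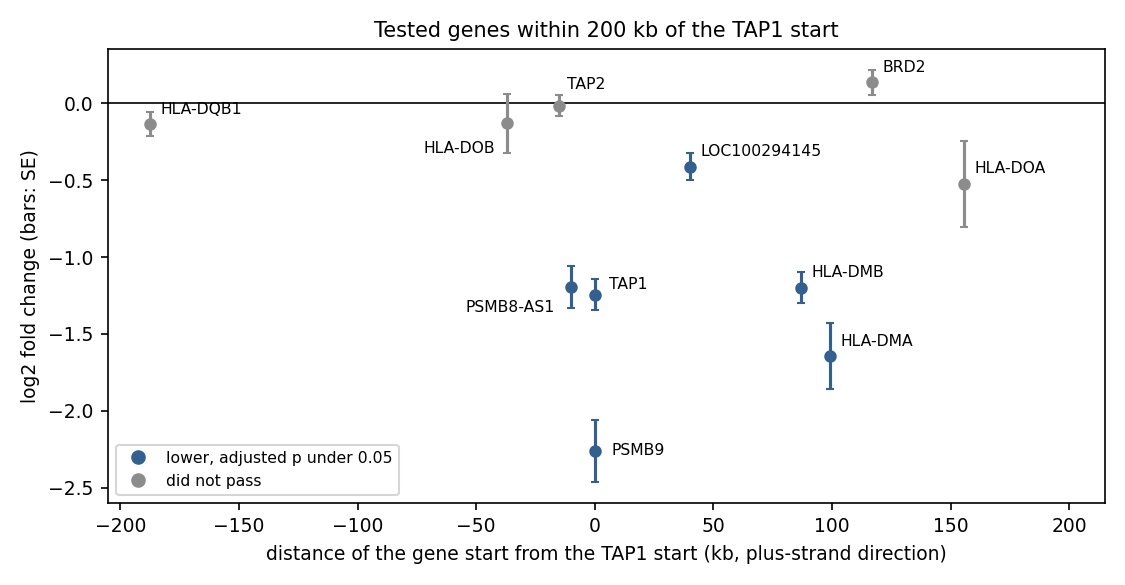
Log2 fold change with its SE (y axis) of the 11 tested genes against the distance of their start from the TAP1 start (x axis, kb; n = 3 per group). PSMB9, TAP1, PSMB8-AS1, HLA-DMA and HLA-DMB lie at -1.20 or below, while TAP2 lies at -0.02.

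The genes whose profile over the 6 libraries was nearest to the mean profile of the tested members were MED24, NDFIP2, CYS1, HDDC3 and FAM189B. Their root-mean-square distance ran from 0.028 to 0.0315 on the log2 scale, and their log2 fold changes ran from -0.49 to -0.46. Since the members moved in both directions, this mean profile matches no single member.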

How the data were processed

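Poly-A RNA of 6 HEK293T samples was sequenced from dUTP libraries, in pairs of 75 bases. Per the labels, CASAVA 1.8.2 and STAR 2.4.0k (hg19) were used; per the file headers, HOMER counted exon reads per gene with no strand option and edgeR (3.6.8 per the labels) compared the groups. The deposited per-library values are a signal: counts that the authors scaled to a common total. They are whole multiples of 1 step per library (100% within 0.1 step), read here as 1 read end, which gives the read pairs. The log2 fold changes and adjusted p-values in the authors' deposited table are quoted only where named.

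CPM are deposited values over TMM-scaled totals. The test was limma 3.58.1 (mean trend, two-sided, R 4.3.3) on log2(value + 1 deposited unit, 0.034 CPM), which understates changes of low genes, after edgeR's filter at 10 read pairs, with Benjamini-Hochberg adjustment over 16245 genes. edgeR 4.0.16, DESeq2 1.42.0 and voom on recovered read pairs were alternatives. The fits were also run on simulated data with the same dispersion for every gene and few changed genes. These data differ from that setting, so the simulation does not vouch for the calls here. Every pair of replicates differed by more than sampling noise. Named genes are the members, the siRNA target, the 2 smallest p of each list, standard proteasome subunits and the 5 nearest profiles; other genes were looked up later, and those printed without a value were named after their values were seen. Some genes that the rule names are left out. The members and lists were chosen with earlier results of these data known. Promoters were matched by symbol for 8 of 9 members.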

Additional observations from a re-analysis of the deposited data

How the results depend on the processing

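TAP1 (log2 -1.33 to -1.14), TAPBP (-1.17 to -1.02) and PSMB9 (-2.44 to -2.17) kept their direction and call in all 17 alternatives run for each. At an adjusted p of 0.01, 1777 genes were higher and 1743 lower, and 0 members were higher. With upper-quartile scaling, library totals or no filter, 1 member was higher, since HLA-B was lost (adjusted p = 0.0614, 0.102 and 0.0543 in limma). Restricted to rows at 1 genome position, which leaves B2M, 0 members were higher and 0 lower. Leaving out 1 library at a time gave 2063 to 2655 higher and 2210 to 2854 lower genes, 0 to 2 higher and 3 to 3 lower members, and log2 differences of -1.29 to -1.13 for TAP1 over TAP2, -2.32 to -1.99 for PSMB9 over PSMB6 and 0.29 to 0.51 for heavy chains over B2M. TAP2 ran from -0.045 to 0.0024 over libraries left out, above 0 without LOC550643 siRNA replicate 1, and IRF1 from -0.13 to 0.029, above 0 without non-silencing replicate 1; the cause was not tested. With the replicate number as a block, 2689 genes were higher and 2707 lower, and members stayed at 2 and 3; same-numbered samples share only a number (correlations of deviations 0.0584, -0.283 and -0.12). edgeR called 2885 higher and 3019 lower, DESeq2 2789 and 2596. Limits: LOC550643 siRNA replicate 3 was the shallowest library, which bears most on PSMB8 and PSMB9. Non-silencing replicate 2 differed most from its partners (chi-square of read pairs per degree of freedom 31.2 and 41.6). Non-silencing replicates 1 and 3 gave 9.44, and the LOC550643 siRNA pairs 5.3 to 13.5. REL stood at 16.6, 27.9 and 16.5 CPM and LNPEP at 8.72, 15.3 and 8.05 CPM in non-silencing replicates 1 to 3. Of the members, 8 have rows at several positions.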

Other observations

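Relatives of class I molecules outside the classical family have varied roles: some present lipids or metabolites, some signal stress to natural killer cells, and FCGRT, the neonatal Fc receptor, binds antibodies and albumin. Of 9 tested, 4 rose (FCGRT, MICA, MICB and ULBP2), 3 fell (MR1, CD1D and ULBP3) and 2 did not pass. Among all genes tested, 17.5% were higher and 18.1% lower. The list median was -0.11 on the log2 scale, and the list was not tested as a set. MR1, which presents vitamin B metabolites, stood at 14.2, 14.9 and 14.2 CPM after LOC550643 siRNA and at 22.4, 23.2 and 21.6 CPM with the non-silencing siRNA. Every LOC550643 siRNA library was below every non-silencing one, and MR1 fell by 0.64 on the log2 scale (limma adjusted p = 0.000188). CD1D, which presents lipids to natural killer T cells, averaged 1.65 ± 0.325 CPM after LOC550643 siRNA and 3.86 ± 0.139 CPM with the non-silencing siRNA (SD, n = 3 each; log2 -1.23, limma adjusted p = 0.000322). The rows of both genes are listed at 1 genome position.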
